A study of Mus musculus with 6 samples.

Results

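Elastic fibre and lysyl oxidase genes were followed in cultures of mouse testicular peritubular myoid (PTM) cells. The set holds 10 genes chosen by name, namely Eln, Fbn1, Fbn2, Fbln1, Fbln5, Mfap4, Mfap5, Lox, Loxl1 and Loxl2. All 10 were found among the 19285 genes with values in the deposited table. Earlier results of these data were known when the set was chosen, so its counts beside shares of all genes are descriptive. The cultures were primary cells of C57BL/6J mice grown in medium with serum. In the treated group, 3 libraries came from cells given 50 nM ET1 (endothelin-1, written ET-1 here) for 5 min, and the other group was 3 libraries of untreated cells. The labels name no Cre, transgene or other agent. Nothing in them tells whether the 3 libraries of a group stem from separate animals or cultures. The p-values below thus measure only a spread that may be technical. The unit is FPKM, a number of fragments divided by transcript length and library depth, so that levels of different genes can be compared per length.

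Elastic fibres give tissues their recoil. They consist of a core of cross-linked elastin laid down on a scaffold of fibrillin microfibrils, with fibulins and microfibril-associated proteins at the interface. Lysyl oxidases are copper-dependent enzymes that oxidise lysine side chains of elastin and collagens, from which the cross-links form. In the testis, peritubular myoid cells lie in the wall of the seminiferous tubule, where they contract and secrete part of the surrounding matrix.

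The smooth muscle genes Acta2 (1529 to 2211 FPKM with ET-1, 1474 to 1690 FPKM untreated) and Myh11 (22.2 to 48.4 FPKM with ET-1, 43.3 to 51.2 FPKM untreated) were present in all 6 libraries. So was Insl3, a hormone of Leydig cells, at 614.0 to 2096 FPKM with ET-1 and 2040 to 4532 FPKM in untreated cells. A value need therefore not be that of myoid cells alone, and in such bulk samples fewer cells of a type and less RNA per cell cannot be told apart. From the spacing of the lowest FPKM values, each library was estimated to hold 17600000 to 18350000 fragments, with 82.1% to 87.6% of the values used within 0.15 of a whole fragment. Untreated libraries 1 and 3 were closer to each other (Pearson r = 0.9964 on log2(FPKM + 1) across genes) than the other pairs within a group (0.9729 to 0.9835).

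The fibulin genes Fbln1 and Fbln5 were called higher in the ET-1 libraries, with ratios of the group means (ET-1 over untreated) of 2.0 and 2.2. Both calls were close to the threshold (limma adjusted p = 0.0455 and 0.0482). Leaving out any single library ended that of Fbln1, and any but untreated library 2 ended that of Fbln5. Mfap4 and Mfap5, whose proteins sit on microfibrils, had ratios of 2.18 and 2.25 but did not pass the test. Lox was the most abundant gene of the set in every library. Eln and Loxl2 had lower means after ET-1, and neither passed. A gene was called at a Benjamini-Hochberg adjusted p under 0.05 in limma on log2(FPKM + 1), fitted over the 11664 genes with at least 1 FPKM in at least 3 libraries. Genes called higher with ET-1 are said to rise, and genes called lower to fall. Of the 10 genes, 2 rose and 0 fell, against 1.57% of all tested genes called higher and 1.89% called lower. Fbn2 lay below the filter and was not tested, and by sign 7 of the other members were higher and 2 lower. With the replicate number as a block, 4 rose (Fbln1, Fbln5, Mfap5 and Loxl1) and 0 fell, against 4.26% and 5.19% of tested genes. The labels do not say what a number stands for, and numbers 1 and 3 are not shown to pair. Results with the block are therefore given only as an alternative. At an unadjusted p under 0.05, 5 of the members passed, all of them higher (Fbln1, Fbln5, Mfap4, Mfap5 and Lox), against 10.6% of all tested genes higher and 13.5% lower at that p.

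**Figure D1:**
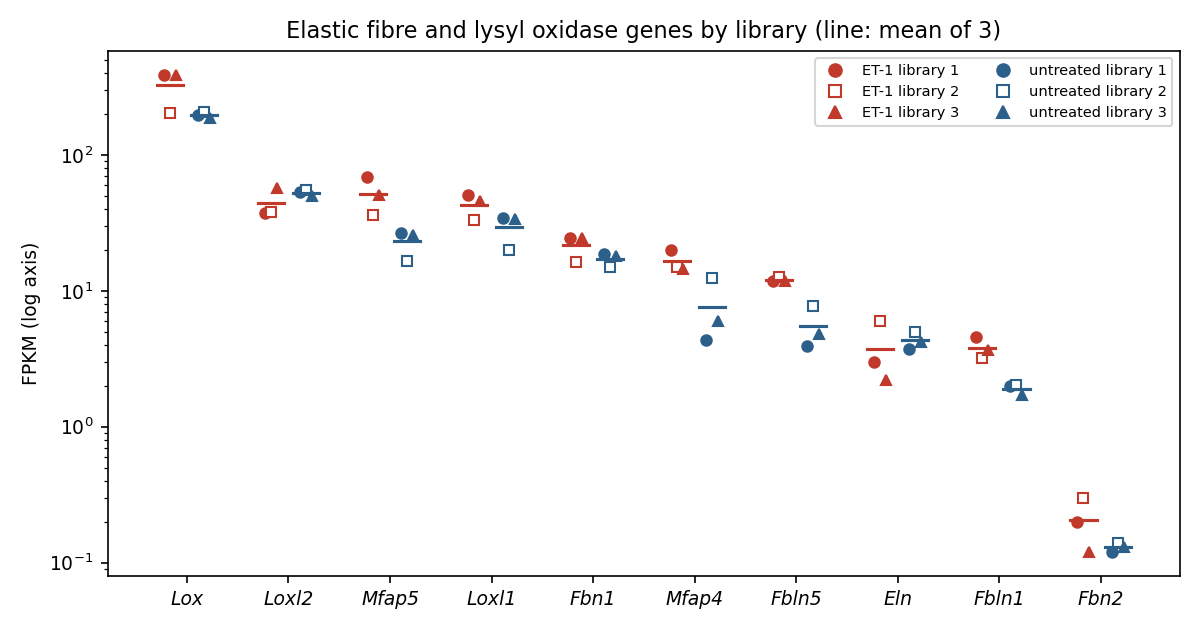
FPKM of each gene (log axis) in each library, with ET-1 libraries left of untreated libraries and a line at the mean of 3. Fbln1, Fbln5, Mfap4 and Mfap5 are the genes whose groups do not overlap, and Lox stands above all other members in every library.

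Promoter sequences are shown for the fibulin genes that passed and, for comparison, for Fbn1, which did not. These 3 members had an entry in the RefSeq promoter table (GRCm38.p6) at the start site given in the deposited table. Each run is the 250 bases before that start, on the strand of the gene and 5′ to 3′. Capitals mark a GC box (GGGCGG) or a SMAD element (CAGAC), on either strand.
Fbln1, chr15:85205758-85206007, plus strand: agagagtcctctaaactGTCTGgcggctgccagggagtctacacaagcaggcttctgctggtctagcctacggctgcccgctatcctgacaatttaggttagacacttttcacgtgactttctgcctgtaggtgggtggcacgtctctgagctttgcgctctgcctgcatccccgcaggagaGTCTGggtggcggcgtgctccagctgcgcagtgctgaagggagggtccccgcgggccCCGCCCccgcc
Fbln5, chr12:101819120-101819369, minus strand: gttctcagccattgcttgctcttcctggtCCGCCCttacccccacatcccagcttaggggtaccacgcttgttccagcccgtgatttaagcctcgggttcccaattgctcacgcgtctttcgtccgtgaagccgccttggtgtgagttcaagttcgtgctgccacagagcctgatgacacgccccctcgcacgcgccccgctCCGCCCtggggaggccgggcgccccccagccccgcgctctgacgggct
Fbn1, chr2:125506439-125506688, minus strand: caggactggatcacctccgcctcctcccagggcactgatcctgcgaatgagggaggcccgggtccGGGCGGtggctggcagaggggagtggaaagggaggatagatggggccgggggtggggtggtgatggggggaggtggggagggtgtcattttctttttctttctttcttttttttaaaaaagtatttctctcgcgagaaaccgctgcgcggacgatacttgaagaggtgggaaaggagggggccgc
The GC box is in 32.7% of all 32841 windows of this length, and the windows of Fbln1, Fbln5 and Fbn1 held 1, 2 and 1. The SMAD element is in 42.2% of all windows, and was present 2 times in that of Fbln1 and 0 times in the others. A TATA box (TATAAA), an AP-1 element (TGANTCA), a TEAD element (CATTCC) and a CArG box were in 12.4%, 6.75%, 12.6% and 1.47% of all windows and in 0 of these 3. GC content was 62.4% for Fbln1, 65.2% for Fbln5 and 59.2% for Fbn1, with a median of 52.4% over all windows. Such matches describe letters in these windows only.

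Fbln1 encodes fibulin-1, a glycoprotein of basement membranes and elastic fibres that binds elastin and fibronectin. The gene lies on chromosome 15, from 85206008 to 85286294 (mm10, plus strand). It was at 4.61, 3.23 and 3.64 FPKM in ET-1 libraries 1 to 3, against 1.99, 2.02 and 1.72 FPKM in untreated libraries 1 to 3. Every ET-1 library was above every untreated library, and the untreated values were close together. The log2 change on the log2(FPKM + 1) scale, which understates the change of low genes, was 0.72 ± 0.14 (SE; limma adjusted p = 0.0455). These values rest on about 105 to 277 fragments per library. The Fbln1 call was lost on leaving out any of the 6 libraries in turn (limma adjusted p from 0.0544 to 0.224). It was also lost with a pseudocount of 5 (0.0532), quantile normalization (0.0593), equal medians (0.0501), no filter (0.102), and untreated libraries 1 and 3 averaged (0.180).

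Fbln5 encodes fibulin-5, which tethers elastin to microfibrils and cells, and in the mouse is required for normal elastic fibres. The gene lies on chromosome 12, from 101746565 to 101819119 (minus strand). Its level was 11.74, 12.75 and 11.85 FPKM in libraries with ET-1, against 3.93, 7.74 and 4.85 FPKM in the untreated libraries. The ET-1 libraries were close together, whereas untreated library 2 was above untreated libraries 1 and 3. The means were 12.1 ± 0.6 FPKM after ET-1 and 5.5 ± 2.0 FPKM in untreated cells (SD, n = 3 each), and the log2 change was 1.05 ± 0.21 (SE; limma adjusted p = 0.0482). Leaving out single libraries gave adjusted p-values from 0.0134 (without untreated library 2) to 0.215 (without untreated library 3), and the call was lost without any other single library. It was also lost with a pseudocount of 0.1 (limma adjusted p = 0.0504), no filter (0.119), and untreated libraries 1 and 3 averaged (0.1697).

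Mfap5 encodes microfibril-associated protein 5 (MAGP-2), which binds fibrillins. The gene is on chromosome 6, from 122513676 to 122529290 (plus strand). It was at 68.76, 36.11 and 51.08 FPKM in libraries with ET-1, against 26.86, 16.65 and 25.91 FPKM in the untreated libraries. The groups did not overlap, and library 2 was the lowest of its group on both sides. The log2 change was 1.12 ± 0.27 (SE; limma adjusted p = 0.0741), and the block by replicate number gave an adjusted p of 0.00802.

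Mfap4 encodes a fibrinogen-related glycoprotein that binds elastin and fibrillin-1, and lies on chromosome 11, from 61485444 to 61488704 (plus strand). It was at 20.15, 14.89 and 14.60 FPKM in libraries with ET-1, against 4.34, 12.37 and 6.04 FPKM in the untreated libraries. The groups did not overlap, but untreated library 2 came close to the lowest ET-1 value. The log2 change was 1.13 ± 0.33 (SE; limma adjusted p = 0.105), the adjusted p with the replicate block was 0.0715, and without untreated library 2 the adjusted p was 0.0253 with a log2 change of 1.503. Of its annotated exonic bases, 89 of 1922 overlap the gene Mapk7 on the other strand, and no source used here says whether counting used strand.

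The groups did not overlap in 4 of the 10 genes, all of them higher after ET-1 (Fbln1, Fbln5, Mfap4 and Mfap5). Among all tested genes the share with groups that do not overlap was 13.2% for higher and 17.6% for lower. The median log2 change of the 9 tested members was 0.67, with a range of -0.28 to 1.13, and that of all tested genes was -0.03.

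Fbn1 and Fbn2 encode fibrillin-1 and fibrillin-2, the backbone of microfibrils. Fbn1 (chromosome 2, from 125300594 to 125506438, minus strand) was at 24.59, 16.21 and 24.31 FPKM in libraries with ET-1, against 18.70, 15.06 and 18.15 FPKM in the untreated libraries. ET-1 libraries 1 and 3 were above all untreated libraries, and ET-1 library 2 fell within their range. The log2 change was 0.29 ± 0.18 (SE; limma adjusted p = 0.366). Of its exonic bases, 2442 of 12128 overlap an annotated gene on the other strand, Gm9913. Fbn2, the fibrillin most used in development, was the lowest gene of the set, at 0.20, 0.30 and 0.12 FPKM in libraries with ET-1 and 0.12, 0.14 and 0.13 FPKM in the untreated libraries. Because the transcript is long (10480 bases), these values still rest on about 23 to 55 fragments per library. Fbn2 made up 0.807%, 1.82% and 0.491% of the summed fibrillin FPKM in ET-1 libraries and 0.638%, 0.921% and 0.711% in untreated libraries. The difference in the means of 0.282 percentage points gave an exact two-sided permutation p of 0.8, where 3 against 3 libraries cannot go below 0.1, and it turned to -0.108 without ET-1 library 2.

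Eln, the gene of tropoelastin, the soluble unit of the elastic core, was low (chromosome 5, from 134702595 to 134747323, minus strand). It was at 3.0, 6.01 and 2.19 FPKM in libraries with ET-1, against 3.75, 5.02 and 4.18 FPKM in the untreated libraries. ET-1 library 2 had the highest value of all 6 and the other ET-1 libraries the lowest, so the groups overlapped. The log2 change was -0.24 ± 0.29 (SE; limma adjusted p = 0.639), and it was 0.00 without ET-1 library 3. Eln had the largest spread of the set within the ET-1 group, with a coefficient of variation of 53.9%, against 15.0% in untreated cells. In untreated cells the largest was that of Mfap4 (55.8%), whose coefficient in the ET-1 group was 18.9%.

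Lox, the founding lysyl oxidase, which is secreted as a precursor and cross-links elastin and fibrillar collagens, ranked 316 among 19285 genes by mean FPKM. It lies on chromosome 18, from 52516060 to 52529867 (minus strand). Its level was 387.02, 203.83 and 390.65 FPKM in libraries with ET-1, against 195.68, 208.54 and 187.30 FPKM in the untreated libraries. ET-1 libraries 1 and 3 were far above the untreated range, while ET-1 library 2 lay inside it. The means were 327.2 ± 106.8 FPKM after ET-1 and 197.2 ± 10.7 FPKM in untreated cells (SD, n = 3 each). The log2 change was 0.67 ± 0.25 (SE; limma adjusted p = 0.167). Without ET-1 library 2 the change was 0.98 with an adjusted p of 0.0308.

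Loxl1 encodes the lysyl oxidase that binds fibulin-5 and is directed to elastin. It was at 50.35, 32.98 and 45.50 FPKM in libraries with ET-1, against 34.48, 20.04 and 33.66 FPKM in the untreated libraries (chromosome 9, from 58287723 to 58313212, minus strand). Within each group library 2 was the lowest, and ET-1 library 2 overlapped the untreated range. The log2 change of 0.55 ± 0.24 (SE) had a limma adjusted p of 0.227, which was 0.0308 under the block. Loxl2, a lysyl oxidase with scavenger receptor domains that acts on collagen IV, went the other way by its mean (chromosome 14, from 69609476 to 69695834, plus strand). It was at 37.18, 38.08 and 56.99 FPKM in libraries with ET-1, against 53.19, 55.05 and 50.14 FPKM in the untreated libraries. ET-1 library 3 held the highest value of all 6 and ET-1 libraries 1 and 2 the lowest. The log2 change was -0.28 ± 0.17 (SE; limma adjusted p = 0.361), and without ET-1 library 3 it was -0.48 with an adjusted p of 0.0420.

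Shares were taken of the summed FPKM of Lox, Loxl1 and Loxl2, the 3 lysyl oxidase genes of the set. Such a share does not depend on how a library was scaled. The sum left out Loxl3 (22.99 to 43.97 FPKM with ET-1, 26.11 to 27.74 FPKM untreated) and Loxl4 (3.18 to 4.01 FPKM with ET-1, 2.63 to 4.3 FPKM untreated). Lox took 81.6%, 74.1% and 79.2% in the ET-1 libraries, against 69.1%, 73.5% and 69.1% in the untreated libraries. The lowest ET-1 share stood just above the highest untreated share. The mean difference was 7.75 percentage points (exact two-sided permutation p = 0.1, the smallest that 3 against 3 libraries can give). Loxl2 took 7.83%, 13.9% and 11.6% with ET-1 and 18.8%, 19.4% and 18.5% in untreated cells, and these groups did not overlap either (exact permutation p = 0.1, again the smallest possible). The share of Loxl1 was 10.6 ± 1.4% with ET-1 and 10.6 ± 3.0% in untreated cells (SD, n = 3 each). Because the 3 shares make up the whole, the lower share of Loxl2 mirrors the higher share of Lox and is not a separate result. The FPKM of Loxl2 itself overlapped between the groups.

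**Figure D2:**
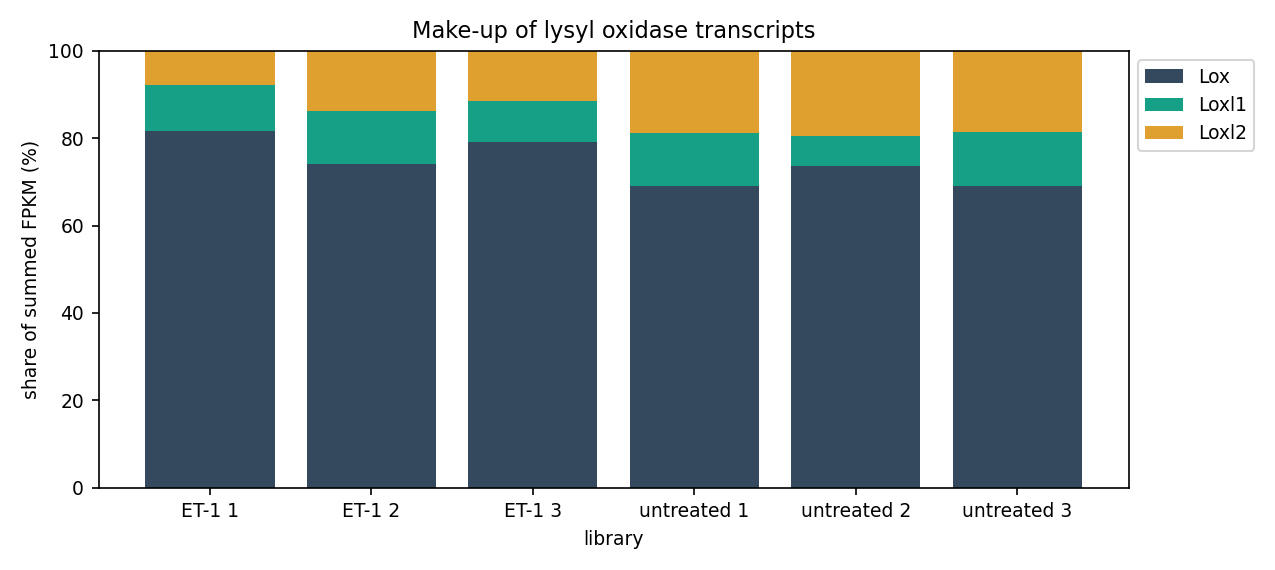
Share of the summed FPKM of Lox, Loxl1 and Loxl2 (percent) in each library, ET-1 libraries on the left. Lox holds 74.1% to 81.6% with ET-1 and 69.1% to 73.5% in untreated cells, and Loxl2 holds less in each ET-1 library than in any untreated one.

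By mean FPKM the order in ET-1 libraries was Lox, Mfap5, Loxl2, Loxl1, Fbn1, Mfap4, Fbln5, Fbln1, Eln and Fbn2. Library ranges overlapped between neighbours for Mfap5 and Loxl2, Loxl2 and Loxl1, Fbn1 and Mfap4, and Fbln1 and Eln. Within libraries, Fbn1 was above Mfap4 in each ET-1 library, while the order of the other pairs changed from library to library. The order in untreated libraries was Lox, Loxl2, Loxl1, Mfap5, Fbn1, Mfap4, Fbln5, Eln, Fbln1 and Fbn2, with overlaps for Loxl1 and Mfap5, Mfap5 and Fbn1, Mfap4 and Fbln5, and Fbln5 and Eln. These overlapping pairs nonetheless kept the order of their means within each untreated library. Lox stood apart from its neighbour in both groups, with 327.2 FPKM against 52.0 FPKM for Mfap5 with ET-1, and 197.2 FPKM against 52.8 FPKM for Loxl2 in untreated cells.

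In 6 of the 10 members, the library numbered 2 stood on the same side of the other libraries in both groups. The share of all tested genes with this pattern was not computed. Across all tested genes, deviations from the group mean correlated at 0.5234 between ET-1 library 2 and untreated library 2. The pattern is thus not shown to be particular to the members. Fbn1, Mfap5 and Loxl1 had their lowest value in library 2 of each group, and Eln, Fbn2 and Fbln5 their highest. Lox and Fbln1 were lowest in ET-1 library 2 and highest in untreated library 2, and Mfap4 and Loxl2 were in the middle in ET-1 library 2 and highest in untreated library 2. Mfap5 in library 2 was at 0.603 of the mean of libraries 1 and 3 with ET-1 and 0.631 in untreated cells, and Eln at 2.32 and 1.27. The summed markers of Sertoli cells, the supporting cells inside the tubule, moved with the number too. The sum over 12 markers was 1174 FPKM in ET-1 library 2 against 458.9 and 605.3 FPKM in ET-1 libraries 1 and 3, and 758.4 FPKM in untreated library 2 against 265.0 and 359.6 FPKM in untreated libraries 1 and 3. Cldn11 alone gave 573.3 FPKM of it in ET-1 library 2 and 481.1 FPKM in untreated library 2. Cldn11, Wt1 and Sox9 were highest in library 2 of both groups, whereas Sox8 and Aard were not. No marker of that list was at 0 in all libraries. The sum of 7 Leydig cell markers went the other way, at 827.7 FPKM in ET-1 library 2 against 1686 and 2422 FPKM in ET-1 libraries 1 and 3, and at 2335 FPKM in untreated library 2 against 4889 and 4960 FPKM in untreated libraries 1 and 3. Insl3 alone made up 74.2% to 86.6% of that sum with ET-1 and 87.4% to 91.4% in untreated cells, and Cyp17a1, Hsd3b6 and Lhcgr were under 1 FPKM in all 6 libraries. Their part in the values of the elastic fibre genes was not tested.

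Between the groups, some markers of other cells also differed. The counts below stand against 1.57% of all tested genes called higher and 1.89% called lower. Of 11 tested Sertoli markers 2 rose (Aard and Sox8) and 0 fell, while the summed FPKM of all 12 overlapped between the groups, at 458.9 to 1174 with ET-1 and 265.0 to 758.4 in untreated cells. None of 4 tested Leydig markers passed without the block. Sums over 7 markers were 827.7 to 2422 FPKM with ET-1 and 2335 to 4960 FPKM in untreated cells. Insl3, which made up most of these sums, had a log2 change of -1.53, and its groups overlapped. Its adjusted p in limma was 0.129 without the block, but 0.0101 under it, so there Insl3 fell. Counts under the block are not given for these marker lists. Of 13 tested macrophage markers 1 rose (Lyz2). The summed FPKM of all 15 was 312.9 to 740.0 with ET-1 and 124.8 to 203.0 in untreated cells. Lyz2 alone gave 308.38, 174.19 and 116.38 FPKM in ET-1 libraries 1 to 3, and 34.9, 57.56 and 35.58 FPKM in untreated libraries 1 to 3. Without overlap between the groups, 9 of the 15 were higher and 0 lower. Among all tested genes these shares were 13.2% and 17.6%. Of 6 tested endothelial markers 4 fell (Pecam1, Emcn, Egfl7 and Esam). The sum of all 9 was 26.9 to 47.5 FPKM with ET-1 and 60.8 to 96.1 FPKM in untreated cells. Without overlap between the groups, 8 of the 9 were lower and 0 higher. Of 6 tested markers of fibroblasts and interstitial mesenchyme 2 rose (Thy1 and S100a4). The summed FPKM over 10 markers was 285.2 to 423.0 with ET-1 and 154.3 to 172.7 in untreated cells. Of this sum, S100a4 alone gave 283.03, 211.43 and 166.16 FPKM in ET-1 libraries 1 to 3, and 55.88, 32.58 and 50.05 FPKM in untreated libraries 1 to 3. The sum therefore says little about the other markers. Of the 10 markers, 2 were higher and 1 was lower without overlap between the groups. Lum, Dpt, Pi16 and Col14a1 were under 1 FPKM in all 6 libraries. The 7 smooth muscle markers summed to 3570 to 5077 FPKM with ET-1 and 3118 to 3606 FPKM in untreated cells, and none passed. No marker of these lists was at 0 in all libraries, and the part of such cells in the fibulin and microfibril values was not tested.

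Other genes of microfibrils and elastic fibres were measured as a list of 20, of which 16 passed the filter. Of the 16 tested, 2 rose and 0 fell, against 1.57% of all tested genes called higher and 1.89% called lower. With the replicate block 6 rose and 0 fell, against 4.26% and 5.19% of all tested genes. Mfap2, which encodes the microfibril protein MAGP-1, rose. It was at 6.97, 5.59 and 3.45 FPKM in libraries with ET-1, against 1.86, 0.93 and 1.81 FPKM in the untreated libraries (log2 change 1.30, limma adjusted p = 0.0463). All ET-1 values were above all untreated values. Adamts10, a secreted metalloprotease that binds fibrillin-1, rose too. It was at 16.90, 14.20 and 12.43 FPKM in libraries with ET-1, against 7.24, 6.52 and 6.88 FPKM in the untreated libraries (log2 change 0.97, limma adjusted p = 0.0225), again with no overlap. Leaving out ET-1 library 1 or 2 or untreated library 1 or 3 ended both calls (limma adjusted p from 0.112 to 0.178 for Mfap2 and from 0.0528 to 0.1297 for Adamts10), and leaving out untreated library 2 ended that of Mfap2 (0.0785). The Mfap2 call was also lost with a pseudocount of 5 (limma adjusted p = 0.0558), quantile normalization (0.0630), equal medians (0.0528), no filter (0.121), and untreated libraries 1 and 3 averaged (0.142), and that of Adamts10 with no filter (0.0640) and the averaging (0.0934).

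The other genes of this list that passed with the replicate block code for emilins, glycoproteins at the interface of elastin and microfibrils, and for latent TGF-beta binding proteins, which are associated with microfibrils. Emilin1 averaged 20.5 ± 5.6 FPKM with ET-1 and 11.0 ± 1.7 FPKM in untreated cells (SD, n = 3 each; limma adjusted p = 0.0777, and 0.0237 with the block). Emilin2 averaged 19.99 ± 6.8 FPKM with ET-1 and 9.36 ± 1.60 FPKM in untreated cells (adjusted p = 0.0933, and 0.0171 with the block). Ltbp2, a binder of fibrillin-1 and fibulin-5, was at 67.2 ± 18.6 FPKM with ET-1 and 33.1 ± 1.6 FPKM in untreated cells (adjusted p = 0.0504, and 0.0256 with the block). Ltbp1 was at 30.4 ± 5.5 FPKM with ET-1 and 18.8 ± 2.8 FPKM in untreated cells (adjusted p = 0.0741, and 0.0496 with the block; n = 3 each, limma). These 4 genes also passed with library quality weights, and Ltbp2 passed with a pseudocount of 0.1 (limma adjusted p = 0.04961), quantile normalization (0.04625) and equal medians (0.03997). The groups did not overlap in 7 of the 16 tested genes, all higher (13.2% of all tested genes higher and 17.6% lower), and the median log2 change of those tested was 0.43. The more abundant fibulin genes did not pass. Fbln2, fibulin-2, averaged 307.8 ± 97.9 FPKM with ET-1 and 230.6 ± 54.9 FPKM in untreated cells, with a limma adjusted p of 0.448. Efemp2, fibulin-4, averaged 175.0 ± 34.4 FPKM with ET-1 and 137.1 ± 28.9 FPKM in untreated cells (limma adjusted p = 0.340). Efemp1, fibulin-3, averaged 108.6 ± 31.9 FPKM with ET-1 and 144.1 ± 42.1 FPKM in untreated cells (limma adjusted p = 0.399; SD, n = 3 each).

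**Figure D3:**
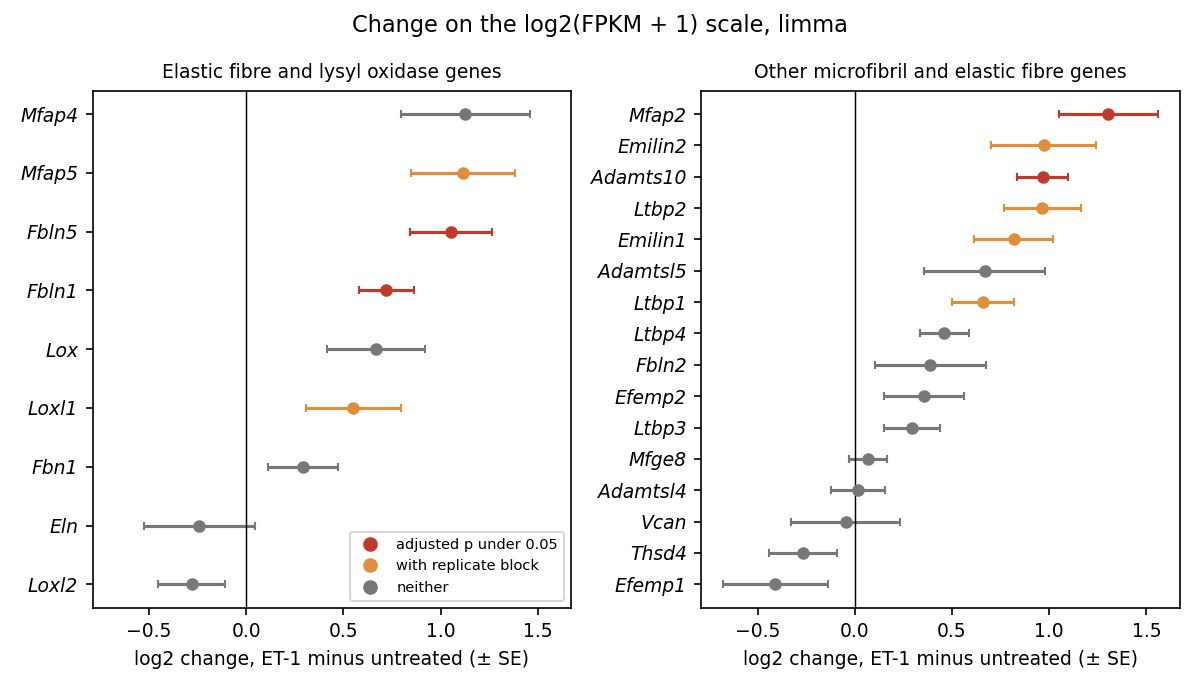
Change on the log2(FPKM + 1) scale, ET-1 minus untreated, with its standard error from limma (n = 3 each), for the 9 tested elastic fibre and lysyl oxidase genes on the left and 16 other genes of elastic fibres on the right. Fbln1, Fbln5, Mfap2 and Adamts10 passed, and 6 further genes passed with the replicate block.

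**Figure D4:**
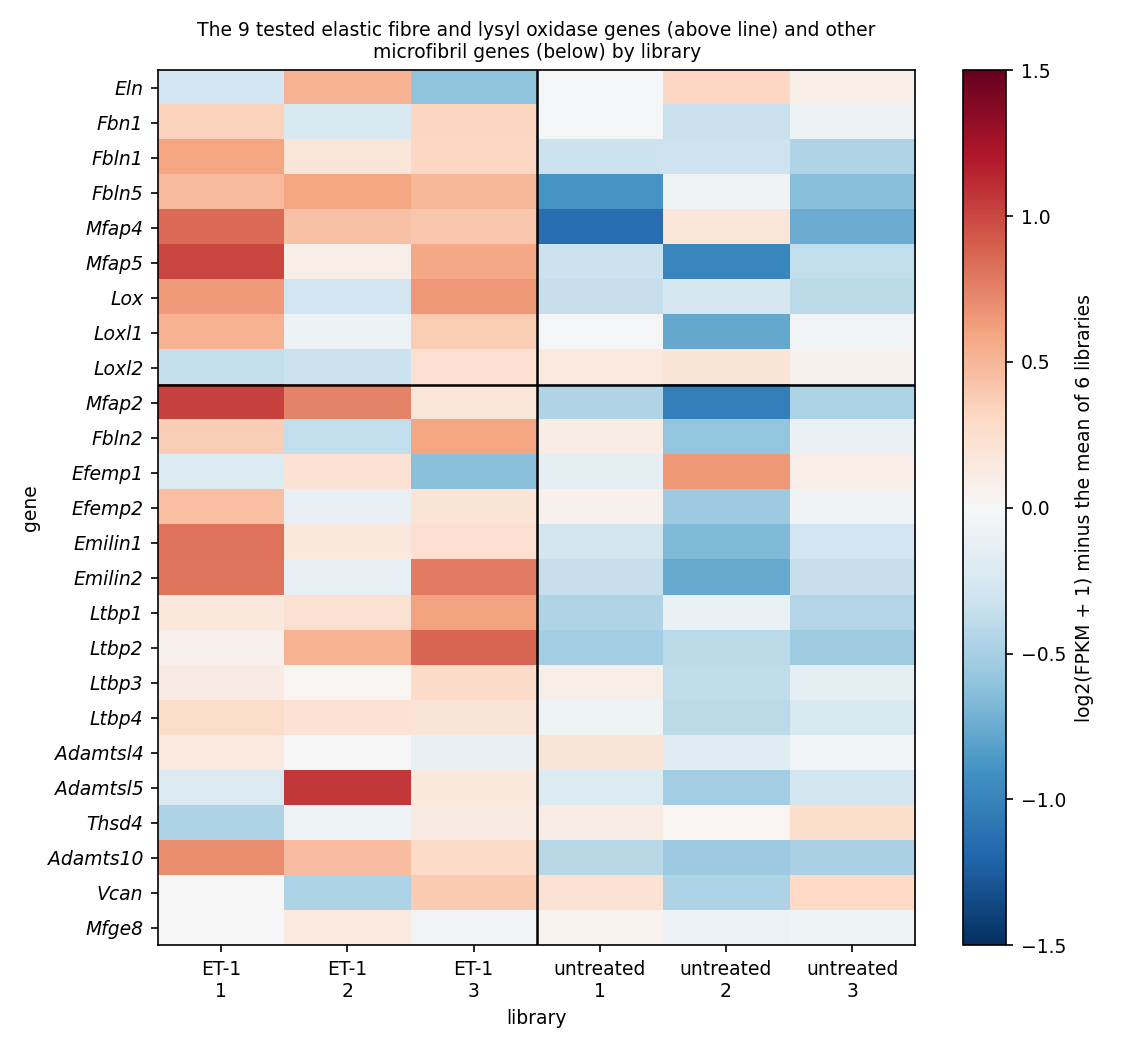
Each gene's log2(FPKM + 1) in each library minus its mean over the 6 libraries. Fbln1, Fbln5, Mfap2 and Adamts10 are above their mean in all ET-1 libraries, as are genes that did not pass, among them Mfap4 and Mfap5. Library 2 is the lowest of its group for Mfap5, Loxl1 and Fbn1 on both sides.

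Of 9 genes for other lysyl oxidases and their activation, 7 were tested and limma called none (1 was higher and 0 were lower at an unadjusted p under 0.05, for which the shares of all tested genes are 10.6% and 13.5%, and 0 passed with the replicate block). Fkbp10, a chaperone of collagen and elastin in the endoplasmic reticulum, had the smallest p. It averaged 88.4 ± 10.7 FPKM with ET-1 and 69.2 ± 7.7 FPKM in untreated cells (SD, n = 3 each; limma adjusted p = 0.167). Bmp1, the protease that cleaves the precursor of lysyl oxidase, was at 55.0 ± 16.1 FPKM with ET-1 and 61.8 ± 21.9 FPKM in untreated cells (SD, n = 3 each). Of 15 elastin-degrading enzymes and inhibitors, 14 had values and 10 were tested. Of these 10, 1 rose and 0 fell, against 1.57% and 1.89% of all tested genes. With the block 2 rose and 1 fell, against 4.26% and 5.19% of all tested genes. The gene that rose without the block was Mmp12, the macrophage elastase, at 58.33, 24.15 and 33.10 FPKM in libraries with ET-1, against 2.78, 10.86 and 4.69 FPKM in the untreated libraries (limma adjusted p = 0.0425). Leaving out any library but untreated library 2 ended the Mmp12 call (adjusted p from 0.0596 to 0.179), and the macrophage marker sums given above were higher in the same libraries. Mmp2, a gelatinase that also cleaves elastin, was at 16.75, 6.80 and 13.13 FPKM in libraries with ET-1, against 62.74, 15.36 and 53.79 FPKM in the untreated libraries. Its groups overlapped through untreated library 2, and its log2 change of -1.62 had a limma adjusted p of 0.138, and of 0.0108 under the block, where it was the gene that fell. The lysosomal protease Ctsl averaged 1112 ± 374.4 FPKM with ET-1 and 732.5 ± 228.8 FPKM in untreated cells (SD, n = 3 each; limma adjusted p = 0.266, and 0.0338 under the block). Ctsk, cathepsin K, averaged 5.93 ± 2.63 FPKM with ET-1 and 13.1 ± 3.5 FPKM in untreated cells (SD, n = 3 each), with no overlap, and did not pass (log2 change -1.06, limma adjusted p = 0.0998). Ctss, cathepsin S, averaged 38.6 ± 15.4 FPKM with ET-1 and 21.9 ± 7.7 FPKM in untreated cells (SD, n = 3 each; limma adjusted p = 0.212). The elastases Mmp7, Mmp9, Elane and Prtn3 were below 1 FPKM in all 6 libraries.

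None of the 9 receptors and associated proteins for elastin and microfibrils passed the limma test. At an unadjusted limma p under 0.05, 2 were higher and 1 lower, against 10.6% and 13.5% of all tested genes. With the block 1 rose, against 4.26% of all tested genes. That gene was Ctsa, a subunit of the elastin receptor complex and of lysosomes, at 143.4 ± 12.1 FPKM with ET-1 and 104.7 ± 9.9 FPKM in untreated cells (SD, n = 3 each; limma adjusted p = 0.0779, and 0.0463 with the block). None of 6 TGF-beta ligands and receptors passed (0 higher and 1 lower at an unadjusted p under 0.05, against 10.6% and 13.5% of all tested genes). Tgfb2 had the smallest p, at 6.41 ± 2.01 FPKM with ET-1 and 12.03 ± 0.66 FPKM in untreated cells (SD, n = 3 each; limma adjusted p = 0.0741, and 0.0306 with the block). The groups did not overlap for Tgfb2, which was lower in all 3 ET-1 libraries.

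Over the 6 libraries, the tested genes whose pattern was most like that of Lox on log2(FPKM + 1) were Pcgf1, Pik3r5, Wnt5a, Zfp28 and Slc6a9, with Pearson r from 0.984 to 0.992. For Fbln1 they were Cadm4, Atxn7l2, Dkk3, Aox1 and Ghr, with r from 0.992 to 0.998. Of the 11664 tested genes, 33 lay above 0.95 with Lox and 141 with Fbln1, and no chance level was computed for such values over 6 libraries in 2 groups.

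In the authors' deposited table the q-value was below 0.05 for all 10 genes, 8 of them higher and 2 (Eln and Loxl2) lower. There, 66.1% of the 16812 genes with a q-value were below 0.05, 32.8% higher and 33.4% lower. For Eln the authors' deposited table gives a log2 fold change of -0.21 with a q-value of 0.00173, and for Fbn2 0.66 with 0.0013.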

How the data were processed

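Total RNA of 3 ET-1 and 3 untreated libraries was sequenced, per the labels' protocols by BGI methods. The submitters' processing notes name the build mm10 and, without their roles, RSEM 1.2.12, HISAT2 2.0.4 and Bowtie2 2.2.5. The authors deposited 1 table with FPKM per library, rounded to 2 decimals, the authors' mean FPKM per group, and for each gene a log2 fold change, a p-value and a q-value. DEGseq is named beside the q-value, per the file headers, and no source used here says how replicates entered it. Of 22135 rows, 19285 had values in all libraries, and 27 symbols stored as dates were restored from gene identifiers.

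The members, lists and tests were chosen with earlier results of these data known. Genes with at least 1 FPKM in at least 3 libraries (11664) were tested in R 4.3.3 with limma 3.58.1 on the log2(FPKM + 1) scale (group as sole term, variances moderated along a trend, two-sided, Benjamini-Hochberg, threshold 0.05). Simulated data had the spread of these libraries (11664 genes, 5 simulations, 200 changed genes). There this step recovered 25.4%, 65.7% and 91.8% of genes whose FPKM + 1 was changed 1.5-, 2- and 4-fold. In low genes such a change is a larger fold of FPKM itself, so the rates do not apply to equal folds of FPKM. The simulated noise was independent for each gene and library. In the real libraries deviations were shared across genes, so these rates need not hold for them. RSEM values need not be whole fragments, so no count test was run; fragments per gene are estimates from depth and the longest transcript. Shares within a library were compared by exact permutation.

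Deviations from the group mean correlated across genes between the libraries of one number (0.2276 for number 1, 0.5234 for 2 and 0.2022 for 3), so the number was also used as a block. The labels do not say what a number stands for, and ET-1 library 1 with untreated library 3 (0.2706) and ET-1 library 3 with untreated library 1 (0.2495) lay above the same-number values, so that numbers 1 and 3 are not shown to pair.

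The text names all 10 members, up to 4 called genes per direction of each other list or else its gene with the smallest p, the 5 genes most like Lox and Fbln1, and Acta2, Myh11 and Insl3. Other genes were chosen after their values were seen. Promoters came from RefSeq (GRCm38.p6) for 3 members, and exon overlaps from GENCODE M21 on the same build. Alternatives were pseudocounts of 0.1 and 5, no filter, 2 other scalings, the block, library quality weights, and leaving out or averaging libraries.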

Additional observations from a re-analysis of the deposited data

How the results depend on the processing

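All values below are numbers of genes called by limma unless stated otherwise. Over all tested genes 404 were called. The count was 81 without a filter, 1102 with the replicate block, 1905 with library quality weights, 9 with untreated libraries 1 and 3 averaged, and 0 to 797 on leaving out single libraries (0 without untreated library 3). Members called higher numbered 2. This count was 1 with a pseudocount of 0.1, 1 with a pseudocount of 5, 1 with quantile normalization, 1 with equal medians, 0 without a filter, 4 with the replicate block, 4 with library quality weights, 0 with the averaged pair and 0 to 2 on leaving out single libraries. Members called lower numbered 0, and 0 to 1 on leaving out single libraries (1, Loxl2, without ET-1 library 3). In the list of other elastic fibre genes 2 were called (Mfap2 and Adamts10; Adamts10 and Ltbp2 with quantile normalization or equal medians), with 1 at a pseudocount of 5, 0 without a filter, 6 with the replicate block, 6 with library quality weights, 0 with the averaged pair and 0 to 3 on leaving out single libraries. Among elastin-degrading enzymes 1 was called, with 0 without a filter, 3 with the replicate block, 3 with library quality weights, 0 with the averaged pair and 0 to 2 on leaving out single libraries. Among receptors 0 were called, with 1 in the replicate block and 3 with library quality weights. Among TGF-beta genes 0 were called, with 1 in the replicate block, 1 with library quality weights and 0 to 1 on leaving out single libraries.

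The direction of each tested member held under every alternative run, except that the log2 change of Eln was 0.0012 without ET-1 library 3 (lowest -0.5668, without ET-1 library 2). The replicate block leaves each log2 change and mean difference as it is, so it cannot test a direction. The difference in the Fbn2 share was -0.1076 percentage points without ET-1 library 2, and at most 0.5553 (without ET-1 library 3). The share of Lox kept its direction on leaving out each library. With pairing by number, the exact two-sided sign-flip permutation p for the share of Lox was 0.25, the smallest that 3 pairs can give. The cause of these shifts was not tested. Counting precision is lowest for Fbn2, at about 23 to 55 fragments per library.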
